A study of Homo sapiens with 9 samples.

Results

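The regions described here are RNA polymerase II (RNAPII) peaks that were called in cells grown without doxycycline and that were overlapped by no peak in any of the other 4 lists of the study. They are called unmatched peaks. Of the 47060 peaks of the no doxycycline list, 13439 were unmatched, which is 28.6% (95% Wilson interval 28.2 to 29.0%), and all 5 lists together held 142069 peaks. The unmatched peaks were selected on their position in the 5 lists alone, an overlap of 1 bp being enough to remove a peak, so that the share itself is a description and not a finding.

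The study mapped RNAPII by chromatin immunoprecipitation and sequencing (ChIP-seq) in the human embryonic kidney line HEK293, to ask how RECQL5, a DNA helicase that binds the polymerase, affects its distribution. The unmatched peaks came from HEK293T-Rex cells that carried the plasmid pcDNA4/TO-RECQL5, in which doxycycline switches on full-length RECQL5. These cells had been selected with Zeocin, and were given 0.0 ng/ml doxycycline. The doxycycline list came from the same kind of cells given 1.0 ng/ml to overproduce RECQL5, so both carried the plasmid. The other 3 lists came from HEK293 cells infected with lentivirus carrying a control hairpin (control shRNA) or a hairpin against RECQL5 (shRNA5 or shRNA7). The labels name 1 non-specific IgG library of untreated cells as the background for both doxycycline lists, and 1 for each hairpin. Each group was 1 library, so that no difference below has a replicate check or a test, and each interval covers counting error only. The cell type markers were mostly present. Of 6 genes known from HEK293 cells, KRT8, KRT18, VIM, CDH2 and PAX2 had a no doxycycline peak at a start site and NEFM had none, while none of 6 genes of other cell types (ALB, HBB, PTPRC, CD3E, INS, MYH7) had one.

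RNAPII initiates at promoters, pauses shortly after the start and then travels through the gene body, and ChIP-seq tags pile up where the polymerase is dense or slow. A peak caller marks a stretch where tags exceed the local background, so that a peak absent from a list has not passed a threshold there and need not be free of polymerase. In such bulk samples fewer cells with polymerase at a place and less polymerase there in each cell cannot be told apart. Where a stretch of sequence has near-identical copies elsewhere in the genome, a short read can fit several places, and the copy to which it belongs is uncertain.

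The sequence beneath the strongest unmatched peaks showed that some lay in unique and others in repeated DNA. The 200 bases centred on the summit are shown for peaks among the strongest by significance score at promoters (SMPD4), in coding exons (SPDYE5, SPDYE1), in introns (NCLN, PITX3) and outside coding genes (RPL9P8, STAG3L3), on the plus strand of GRCh37 (hg19). Peaks whose window touched an untranslated region, and those on 1 chromosome that was not used here for sequence, were passed over. Capitals mark bases inside a stretch of 32 bases that occurs more than once on chromosomes 1 to 22, X and Y, on either strand.
SMPD4, chr2:130929400-130929599: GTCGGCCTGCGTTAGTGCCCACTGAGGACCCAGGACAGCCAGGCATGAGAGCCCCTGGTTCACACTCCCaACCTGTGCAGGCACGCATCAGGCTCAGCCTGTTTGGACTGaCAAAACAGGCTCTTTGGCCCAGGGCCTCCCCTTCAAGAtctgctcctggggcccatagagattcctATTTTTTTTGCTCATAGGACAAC
SPDYE5, chr7:75130879-75131078: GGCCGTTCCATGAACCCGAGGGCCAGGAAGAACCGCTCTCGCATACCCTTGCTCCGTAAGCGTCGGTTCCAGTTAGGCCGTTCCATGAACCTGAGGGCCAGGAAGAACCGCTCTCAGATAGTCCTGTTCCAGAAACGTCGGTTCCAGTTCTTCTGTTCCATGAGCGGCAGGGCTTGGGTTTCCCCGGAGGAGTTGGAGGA
SPDYE1, chr7:44047009-44047208: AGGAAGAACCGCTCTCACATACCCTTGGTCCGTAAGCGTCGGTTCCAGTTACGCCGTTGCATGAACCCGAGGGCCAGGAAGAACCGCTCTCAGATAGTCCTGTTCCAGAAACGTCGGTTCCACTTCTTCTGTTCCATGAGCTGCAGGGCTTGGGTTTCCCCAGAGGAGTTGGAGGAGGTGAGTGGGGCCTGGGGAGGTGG
NCLN, chr19:3198891-3199090: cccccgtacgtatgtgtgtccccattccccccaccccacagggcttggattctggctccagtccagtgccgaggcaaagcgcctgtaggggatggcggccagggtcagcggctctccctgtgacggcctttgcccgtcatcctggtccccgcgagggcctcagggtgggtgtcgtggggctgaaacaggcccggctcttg
PITX3, chr10:103990991-103991190: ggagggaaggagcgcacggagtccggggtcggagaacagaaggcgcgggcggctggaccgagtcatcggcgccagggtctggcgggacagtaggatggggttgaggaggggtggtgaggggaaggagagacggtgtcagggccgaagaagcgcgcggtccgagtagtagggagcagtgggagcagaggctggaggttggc
RPL9P8, chr15:83114019-83114218: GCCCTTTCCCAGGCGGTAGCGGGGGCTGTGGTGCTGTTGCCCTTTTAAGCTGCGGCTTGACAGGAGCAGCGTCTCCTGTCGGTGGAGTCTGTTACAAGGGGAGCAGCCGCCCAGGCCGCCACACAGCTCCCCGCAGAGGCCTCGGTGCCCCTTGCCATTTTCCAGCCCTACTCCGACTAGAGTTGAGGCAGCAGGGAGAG
STAG3L3, chr7:72469214-72469413: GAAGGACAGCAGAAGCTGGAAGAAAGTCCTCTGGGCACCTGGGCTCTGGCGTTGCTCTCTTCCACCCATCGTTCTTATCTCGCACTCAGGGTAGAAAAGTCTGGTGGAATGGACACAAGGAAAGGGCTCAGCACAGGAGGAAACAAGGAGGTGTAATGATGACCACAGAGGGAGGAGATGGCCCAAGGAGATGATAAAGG
Every base was in capitals in the windows at SPDYE5, SPDYE1, RPL9P8 and STAG3L3, and 170 of 200 bases were at SMPD4. The windows in NCLN and PITX3 held no repeated stretch. SPDYE5 and SPDYE1 belong to the Speedy family of cell cycle regulators, and RPL9P8 is a pseudogene. NCLN encodes a membrane protein of the endoplasmic reticulum and PITX3 a homeobox transcription factor. Of the 8 motifs searched, the GC box (GGGCGG) was present, on either strand, in the PITX3 and RPL9P8 windows, and none of the others was found in these 7 windows.

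The unmatched peaks were weak and short. Their median number of sequenced tags was 10 (interval 10 to 10) against 18 (17 to 18) in the 33621 matched peaks of the same list, and their median length was 512 bp (512 to 513) against 732 bp (725 to 738). The median significance score, which is the negative log10 of the p-value that the peak caller gave each peak, multiplied by 10, was 60.7 (60.4 to 60.9) against 98.65 (97.3 to 100.03). Fold enrichment over the local background differed less, with medians of 12.25 (12.04 to 12.33) and 14.88 (14.88 to 14.88). The median false discovery rate was 1.03% against 0.48%. Together the unmatched peaks held 163683 tags, which is 11.3% of the tags inside peaks of this list, on 18.2% of its covered length. Peaks found only with doxycycline, 6019 in number, had a similar median score of 59.0 and length of 502 bp, with more tags (15) and a lower fold enrichment (8.48).

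Strength and absence from other lists went together across the whole range. Between scores of 50 and 60, 6414 of 13417 peaks were unmatched (47.8%, interval 47.0 to 48.7%). The share was 41.1% from 60 to 75, 29.7% from 75 to 100, 16.9% from 100 to 150 and 5.54% from 150 to 300. At scores of 300 and over it was 16 of 6490 peaks (0.247%, 0.152 to 0.400%). The lists also differed in what they could hold. The weakest peak rested on 9 tags without doxycycline and on 11 with it, and on 26 to 35 in the hairpin lists, and 7147 unmatched peaks (53.2%) had 9 or 10 tags. The other lists held from 5287 (control shRNA) to 33900 (doxycycline) peaks, with 842310 to 6698771 tags inside peaks. The part that depth played in the absence of weak peaks was not tested.

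**Figure D1:**
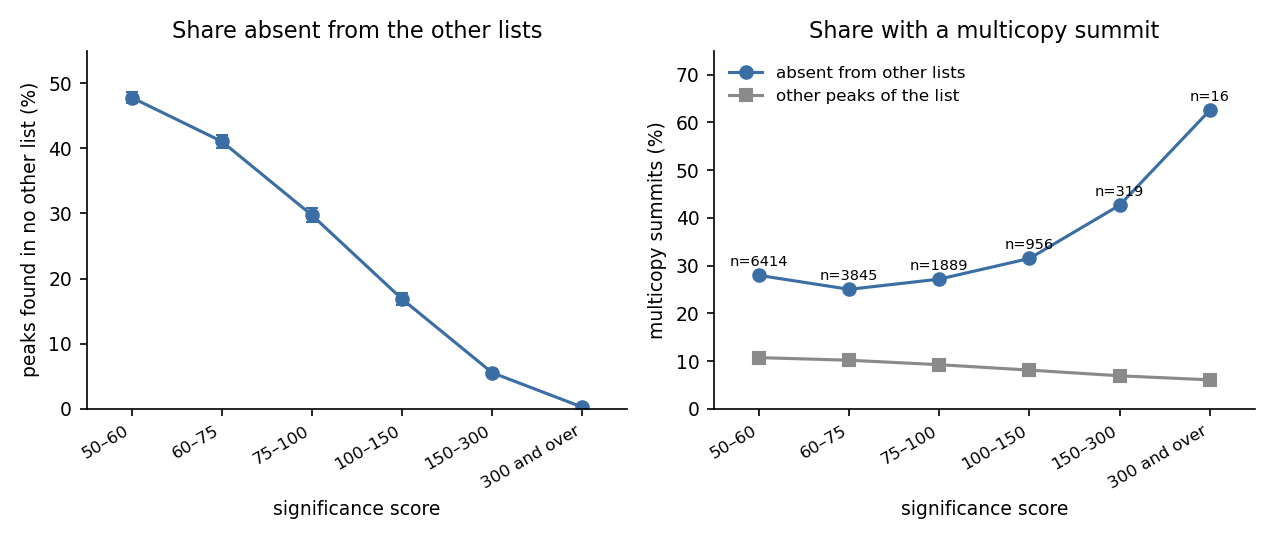
Left, percent of no doxycycline peaks that were found in no other list, by significance score of the peak, with 95% Wilson intervals, falling from 47.8% to 0.247%. Right, percent of summits called multicopy (at least 50% of sampled 32-base stretches repeated in the genome) among unmatched peaks (circles, number of peaks given) and the other peaks of the list (squares), from 27.9% in the lowest to 62.5% in the highest bin of the former, and from 10.7% to 6.05% in the latter.

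Just inside the limit, 57 unmatched peaks ended within 10 bp of a peak of another list and 468 within 100 bp. The 5 closest touched a neighbour without overlapping it. They lay in introns of SMARCC2, ZNF592 and DAGLB, in an untranslated exon of FOXJ2 and outside coding genes in the pseudogene WASH8P. Their tags were 10, 10, 10, 9 and 30. Just outside it, 36 matched peaks overlapped by at most 10 bp and 467 by at most 100 bp. The 5 with an overlap of 1 bp lay in UBR1, SPAG9, IER5L, downstream of ANKH and far from coding genes on chromosome 16, with 9, 9, 15, 12 and 18 tags. The 5 peaks named on each side thus had 9 to 30 tags inside the limit and 9 to 18 outside it. The sizes of the other peaks near the limit were not compared.

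Most unmatched peaks had a peak of another list within 5 kb (52.4%). The median distance to the nearest peak was 4.44 kb (interval 4.27 to 4.64) for any other list. It was 8.22 kb for shRNA7, 9.85 kb for doxycycline, 13.8 kb for shRNA5 and 84.5 kb for the control shRNA. A doxycycline peak lay within 1 kb of 1591 unmatched peaks (11.8%, interval 11.3 to 12.4%), within 10 kb of 50.3% and within 100 kb of 89.1%. Within their own list, 22.1% of unmatched peaks had another peak within 1 kb, against 53.9% of matched peaks.

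The next question was where in genes the unmatched peaks lay. A peak was promoter-proximal when any of it lay at most 500 bp before or after a coding transcript's start site (TSS), and in the gene body when it touched the rest of such a transcript. The start of every coding transcript counted, and not only the start of the gene. At the SMPD4 peak, for example, the nearest coding gene start was 9.81 kb from the summit. Of the unmatched peaks, 9679 were in gene bodies (72.0%, interval 71.3 to 72.8%), 2560 outside coding genes (19.0%, 18.4 to 19.7%) and 1200 at promoters (8.93%, 8.46 to 9.42%). The share outside coding genes was 11.4% without multicopy summits, that is, summits in repeated sequence, and 8.14% when transcripts of every type counted as genes. Matched peaks were at promoters in 33.3% and in gene bodies in 54.4% of cases. Peaks that were missing with doxycycline but present with a hairpin lay between the groups, with 16.2% at promoters and 67.4% in gene bodies. Peaks found only with doxycycline were the most confined to gene bodies of these groups (87.8%), with 4.22% at promoters. Of the promoter-proximal peaks of the list 9.68% were unmatched, and of gene-body peaks 34.6%. Distant peaks are here those more than 5 kb from any coding transcript that also lay outside 500 bp around any non-coding start site. Of these 58.5% were unmatched.

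**Figure D2:**
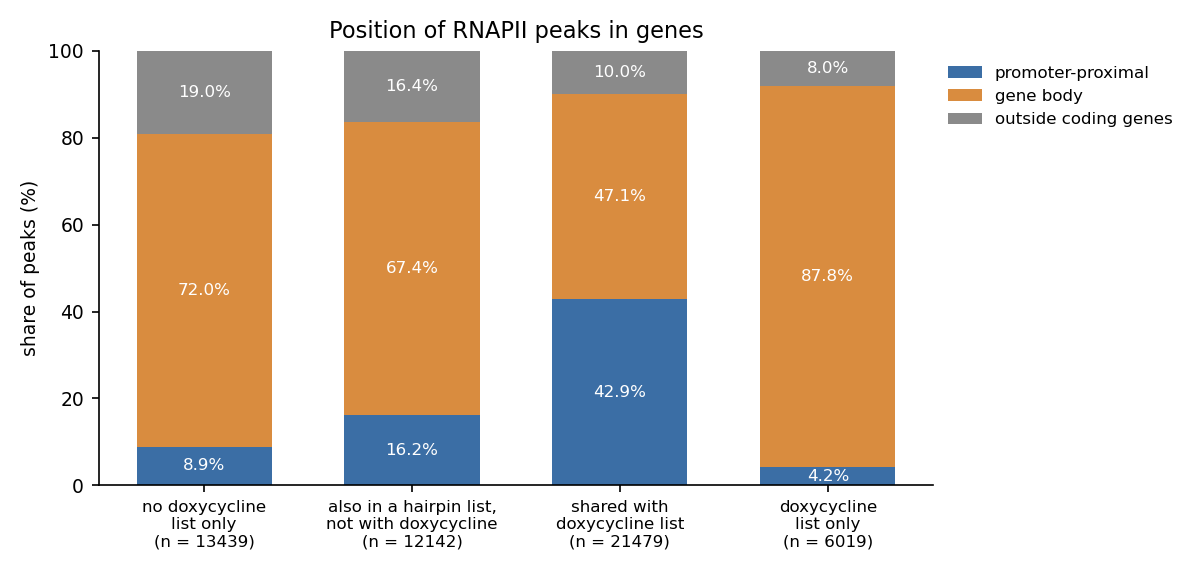
Percent of peaks at promoters, in gene bodies and outside coding genes, stacked, for unmatched peaks, for peaks also present with a hairpin but not with doxycycline, for peaks shared with the doxycycline list and for peaks found only with doxycycline (number of peaks below each bar). Promoter-proximal peaks made up 8.93% of the first and 42.9% of the third group.

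Much of this difference went with peak strength. Among peaks with a score under 75, gene bodies held 75.6% of 10259 unmatched and 74.8% of 12522 matched peaks, and promoters 6.45% and 10.9%. The difference in distant peaks was kept in these weak peaks, at 11.9% (interval 11.3 to 12.6%) of unmatched and 3.94% (3.61 to 4.29%) of matched peaks. Of all distant unmatched peaks 63.7% had a multicopy summit, and without such summits the distant share was 6.15% in place of 12.3%. Downstream of gene ends, within 5 kb and away from non-coding start sites, the order was the opposite, at 2.43% (2.15 to 2.74%) and 7.44% (7.00 to 7.92%).

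Within gene bodies the unmatched peaks lay mostly in introns and evenly along the gene. The summit was in an exon in 806 of 9679 cases (8.33%, interval 7.79 to 8.89%), against 3653 of 18300 in matched peaks (19.96%, 19.39 to 20.55%). Untranslated exons made up 3.94% of unmatched and 12.8% of matched gene-body summits, and coding exons 4.39% and 7.21%. Under a score of 75 the exon shares were 7.68% and 18.7%, so that this difference was present at like strength. Peaks found only with doxycycline resembled the unmatched ones, with 7.55% of gene-body summits in exons.

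When each gene was divided into quintiles from start to end, unmatched summits filled them about equally, with 19.4%, 20.1%, 19.8%, 20.5% and 20.2%. Of the matched summits, 29.1% (28.4 to 29.8%) were in the last quintile, and the other quintiles held 16.7% to 19.1%. Peaks found only with doxycycline were fewest in the first and last quintiles (16.95% and 16.65%) and most frequent in the middle one (23.1%). Under a score of 75, the last quintile held 20.3% of unmatched and 28.4% of matched summits. The genes that held unmatched summits were long, with a median over summits of 78.3 kb (76.4 to 80.3), against 44.5 kb (43.7 to 45.2) for matched summits and 81.4 kb for summits found only with doxycycline.

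**Figure D3:**
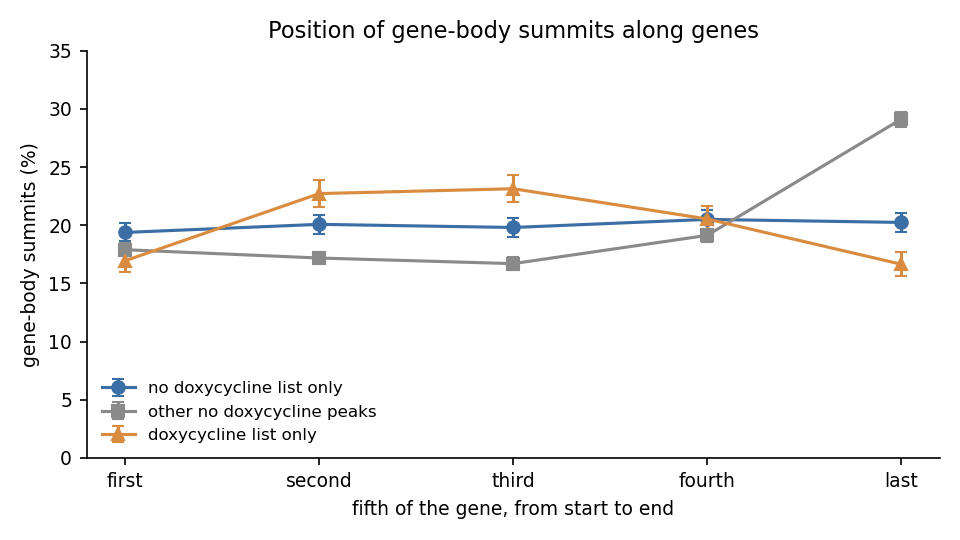
Percent of gene-body summits in each quintile of the longest coding gene that holds them, from start to end, with 95% Wilson intervals, for unmatched peaks (circles), matched peaks of the same list (squares) and peaks found only with doxycycline (triangles). Unmatched summits stay between 19.4% and 20.5%, and matched summits reach 29.1% at the gene end.

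Base composition was measured because sequence under RNAPII peaks can differ between promoters, exons and introns. The median AT content over 2000 bp around the summit was 54.0% (interval 53.85 to 54.15%) in unmatched peaks, 50.55% (50.4 to 50.7%) in matched peaks and 57.6% (57.45 to 57.8%) in peaks found only with doxycycline. Under a score of 75 the medians of unmatched and matched peaks were 54.65% and 54.75%, and their intervals overlapped. A median of 5 CpG dinucleotides was found in the 300 bp around unmatched summits, against 6 in matched peaks and 2 in peaks found only with doxycycline. Within the matched peaks it was 9 in those shared with the doxycycline list and 4 in those present with a hairpin only.

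The shares of sequence motifs differed by motif. On either strand of the 300 bp window, the GC box (GGGCGG) was present at 15.9% of unmatched and 29.1% of matched summits and at 6.06% of summits found only with doxycycline. The ETS core (CGGAAG) was present at 5.73%, 13.5% and 3.57%, the CCAAT box (CCAAT) at 27.7%, 30.4% and 33.7%, and the E-box (CACGTG) at 4.30%, 5.40% and 3.46%. The NRF1 core (GCGCATGC) was present at 1.50%, 1.91% and 0.714%, and AP-1 (TGANTCA) at 7.91%, 7.12% and 9.57%. The AT-rich motifs were most frequent in peaks found only with doxycycline and least in matched peaks, with the TATA box (TATAAA) at 17.3%, 14.7% and 28.6% and the poly(A) signal (AATAAA) at 28.5%, 23.9% and 40.4%. Under a score of 75 the shares in unmatched and matched peaks were 13.2% and 12.7% for the GC box, 4.83% and 5.19% for the ETS core, 28.24% and 30.98% for the CCAAT box, 3.97% and 3.94% for the E-box and 7.91% and 8.54% for AP-1. For the poly(A) signal they were 30.4% and 31.7%. At this strength the TATA box was less frequent in unmatched peaks (18.3%, 17.6 to 19.0%) than in matched ones (19.99%, 19.30 to 20.70%), and the NRF1 core was more frequent (1.51%, 1.29 to 1.77%, against 1.05%, 0.890 to 1.25%), the reverse of all peaks. Without multicopy summits, that is, summits in repeated sequence, the NRF1 core was present at 1.14% (0.949 to 1.37%) of unmatched summits of any score, in place of 1.50%. All motifs here are matches of letters and not binding sites.

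Repeated sequence set the unmatched peaks apart at every strength. A summit was called multicopy when at least 50% of the stretches of 32 bases sampled every 10 bases over 300 bp occurred more than once in the genome, a measure chosen after the peak lists had been seen. By this measure 3714 unmatched peaks were multicopy (27.6%, interval 26.9 to 28.4%), against 8.55% of matched peaks (8.25 to 8.85%), 6.79% of peaks shared with the doxycycline list and 5.10% of peaks found only with doxycycline. Where no sampled stretch was repeated 20.3% of the list's peaks were unmatched, and where all were repeated 65.6%. Among unmatched peaks the multicopy share was 25.02% to 27.94% below a score of 100, 31.5% from 100 to 150, 42.6% from 150 to 300 and 62.5% of the 16 peaks at 300 and over. Among matched peaks it fell from 10.7% to 6.05%. Of the multicopy unmatched peaks most had few copies. Those with a median of up to 20 copies made up 21.3% of all unmatched peaks, and those with over 100 copies 2.16%.

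Multicopy summits were also more frequent in the rest of the no doxycycline list than in the other lists. They made up 8.55% (8.25 to 8.85%) of its matched peaks, and 14.0% (13.7 to 14.3%) of all its peaks with the unmatched ones included. In the other lists they made up 4.77% (4.55 to 5.00%) of doxycycline peaks, and 3.35%, 2.93% and 3.77% of the control shRNA, shRNA5 and shRNA7 peaks. The doxycycline list, although it shares its IgG background and its kind of cells with the no doxycycline list, was thus close to the hairpin lists. Multicopy summits were most frequent where unmatched peaks lay outside coding genes (56.8%) and least frequent at promoters (9.17%), with 22.2% in gene bodies. The study's methods state that Bowtie ran with its best option, which reports an alignment from among those with the fewest mismatches, and that reads in regions blacklisted by ENCODE were taken out. Whether reads with many equally good positions were limited in number is not given in the sources used here, and the part of their placement in these peaks was not tested. Without multicopy summits 9725 of 40473 peaks were unmatched (24.03%), with 77.4% in gene bodies, 9.31% of gene-body summits in exons and 20.9% of gene-body summits in the last quintile.

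**Figure D4:**
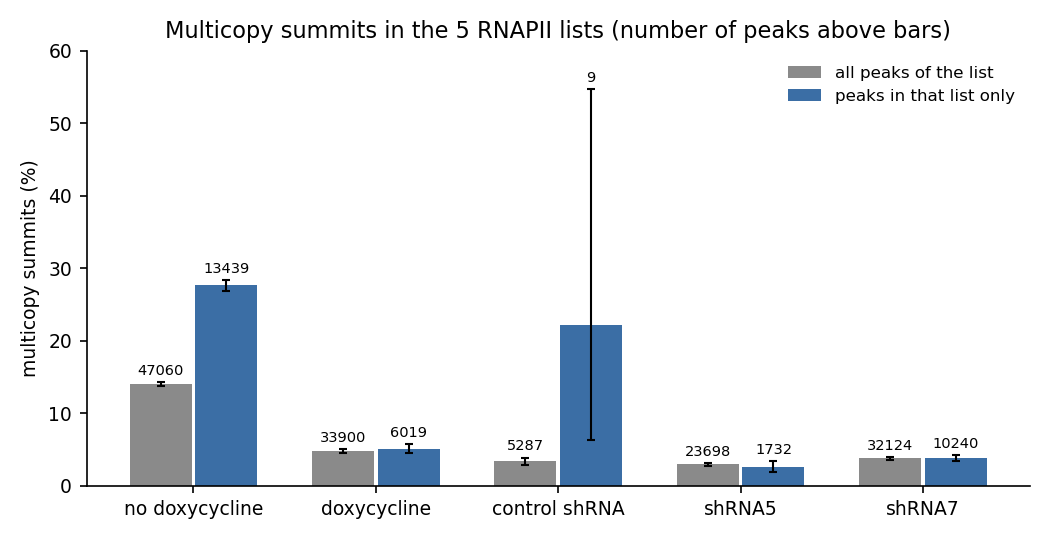
Percent of peaks with a multicopy summit in each of the 5 RNAPII lists, for all peaks (grey) and for peaks found in that list only (blue), with 95% Wilson intervals and the number of peaks above each bar. The no doxycycline list reaches 14.0% and 27.6%, and the other bars are at most 5.10% except for the 9 peaks found only with the control shRNA.

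Unmatched peaks were spread over all chromosomes. Their share of the list's peaks on a chromosome ranged from 18.0% (chromosome 6, 394 of 2193) to 35.1% (chromosome 7, 916 of 2613), apart from chromosome Y with 17 of 46 peaks. On chromosome 16, 53.3% of the unmatched peaks were multicopy, against 14.0% on chromosome 21. The windows of 1 Mb with the most unmatched peaks were at 72 to 73 and 74 to 75 Mb on chromosome 7, with 58 each, of which 46 were multicopy. On chromosome 1, the window at 148 to 149 Mb held 57 unmatched among 70 peaks, all 57 multicopy, and 9 doxycycline peaks. A window on chromosome 19, at 10 to 11 Mb, held 54, of which 7 were multicopy, among 166 peaks without and 82 with doxycycline.

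Of the 10 unmatched peaks with the highest scores, 9 are described next. The strongest lay in an intron of NCLN (chromosome 19, 3196755 to 3199602), with 83 tags, a score of 505.8 and a fold enrichment of 18.6, in unique sequence and 410 bp from an shRNA7 peak. The one in an intron of PITX3 (chromosome 10, 103989621 to 103991509) had 62 tags, a score of 412.3 and a distance of 13.4 kb to the nearest doxycycline peak. A peak at the start of HMG20B, which encodes a chromatin protein, overlapped MFSD12 as well (chromosome 19, 3572489 to 3574159) and had 55 tags and the joint highest fold enrichment of the 10, at 35.34. The peak at SMPD4, a sphingomyelinase gene, had 53 tags and lay 618 bp from a doxycycline peak. Its summit was not called multicopy, with 5 of 27 sampled stretches repeated, although 170 of the 200 bases shown above lay in repeated stretches. The multicopy measure counts exact repeats only.

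The other 6 of these 10 had multicopy summits. The peak at RPL9P8 had 53 tags and a fold enrichment of 35.34, and its sampled stretches had a median of 6 copies. The peak in an intron of NBPF20 had 109 tags and 52 copies, and that in an intron of NRIP1, which encodes a nuclear receptor corepressor, 50 tags and 8 copies. The peaks at STAG3L3 and ULK4P1 had 55 and 54 tags, with 3 and 4 copies. Of the 30 strongest unmatched peaks 20 were multicopy. Of the 1291 with a score of at least 100, which is 9.61% of all, 447 were multicopy (34.6%, interval 32.1 to 37.3%). Among the 844 of these with no multicopy summit 32.1% were at promoters and 52.4% in gene bodies, and among the multicopy ones 6.26% and 47.9%.

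By gene, 5642 of 20176 protein-coding genes held an unmatched peak between 500 bp before the start and the end, which is 28.0%. In 3131 of them there was 1, in 1167 there were 2, and in 520 there were 5 or more. Most of these genes had peaks elsewhere in the study. A doxycycline peak was present in 4209 (74.6%), and 3696 had one at a TSS (65.5%, against 47.4% of all coding genes). They were long, with a median of 54.0 kb against 27.2 kb. The share with an unmatched peak rose from 4.27% of genes of 5 kb or less to 16.1% (5 to 20 kb), 36.8% (20 to 100 kb) and 45.7% of genes over 100 kb. A longer gene offers more room for a peak. In genes over 100 kb 40.4% of the no doxycycline peaks were unmatched, and in genes of 5 kb or less 8.002%. Neither the mix of promoter and gene-body peaks nor their strength was held equal between these genes, and their part was not tested.

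In 4 of the 10 genes with the most unmatched peaks, each such peak was multicopy. NBPF20, of the neuroblastoma breakpoint family (chromosome 1, 148250249 to 148347506), had 41 unmatched peaks with 10 to 109 tags (median 29), and no peak in any other list. NBPF8 (chromosome 1, 144146808 to 144224481) had 22 with 13 to 52 tags and also no peak elsewhere. NBPF10 (chromosome 1, 145209145 to 145358886) had 30 with 16 to 59 tags, beside 1 doxycycline, 1 shRNA5 and 5 shRNA7 peaks, and the overlapping gene ENSG00000286185 had 31. The peaks of these genes had median copy numbers of 48 to 58.5, so that their assignment to one copy is uncertain.

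In MLLT10, PARD3, CTBP2, USP34 and DNM2, at most 3 unmatched peaks were multicopy and the median peak had 10 to 11.5 tags. MLLT10, which encodes a partner of the histone methyltransferase DOT1L (chromosome 10, 21813575 to 22032559), had 26 unmatched peaks with 9 to 32 tags (median 10). All of them had their summit in introns, from 19.2 to 161.4 kb after the start, and 17 other no doxycycline peaks of MLLT10 were shared with the 33 peaks of the doxycycline list. PARD3, a cell polarity gene (chromosome 10, 34398488 to 35104253), had 22 unmatched peaks with 9 to 16 tags, among 25 peaks without and 10 with doxycycline, none of them shared. USP34, which encodes a deubiquitinase (chromosome 2, 61414598 to 61698222), had 20 with 9 to 24 tags, and 1 of its other no doxycycline peaks was shared with the 13 peaks found with doxycycline. In MLLT10 the lists thus had many peaks in common, and in PARD3 and USP34 none and 1.

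CTBP2, a transcriptional corepressor gene (chromosome 10, 126672886 to 126849739), had 20 unmatched peaks with 9 to 33 tags, 3 of them promoter-proximal. DNM2, which encodes dynamin, a GTPase of vesicle scission (chromosome 19, 10828731 to 10944164), had 19 with 9 to 23 tags. MFSD14B (chromosome 9, 97136851 to 97223324) had 19 as well, but 13 of them were multicopy. The highest scores in these genes were 206.8 in CTBP2, 147.6 in DNM2, 132.3 in MLLT10, 123.8 in USP34, 120.7 in MFSD14B and 84.2 in PARD3.

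Per length, among genes with at least 5 unmatched peaks, the 5 with the highest density were SPDYE16, NPTX1, SPDYE5, SPDYE2 and LINC00999. SPDYE16, SPDYE5 and SPDYE2 on chromosome 7 had 7, 6 and 6 unmatched peaks in 11.99, 12.04 and 12.31 kb, all multicopy, which is 0.584, 0.498 and 0.487 peaks per kb. LINC00999, listed as coding in the annotation (chromosome 10, 38717074 to 38736820), had 9 in 19.7 kb, all multicopy. NPTX1 differed from these. This gene of a neuronal pentraxin (chromosome 17, 78440634 to 78451643) had 6 unmatched peaks in 11.0 kb, none of them multicopy, with 9, 14, 15, 16, 25 and 41 tags. The summits lay from 4.31 to 11.6 kb after the start, the last just past the gene end, while the 3 doxycycline peaks of the gene lay at 0.917 to 3.43 kb and at 10.2 to 10.6 kb. Each of these 3 was shared with a no doxycycline peak.

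**Figure D5:**
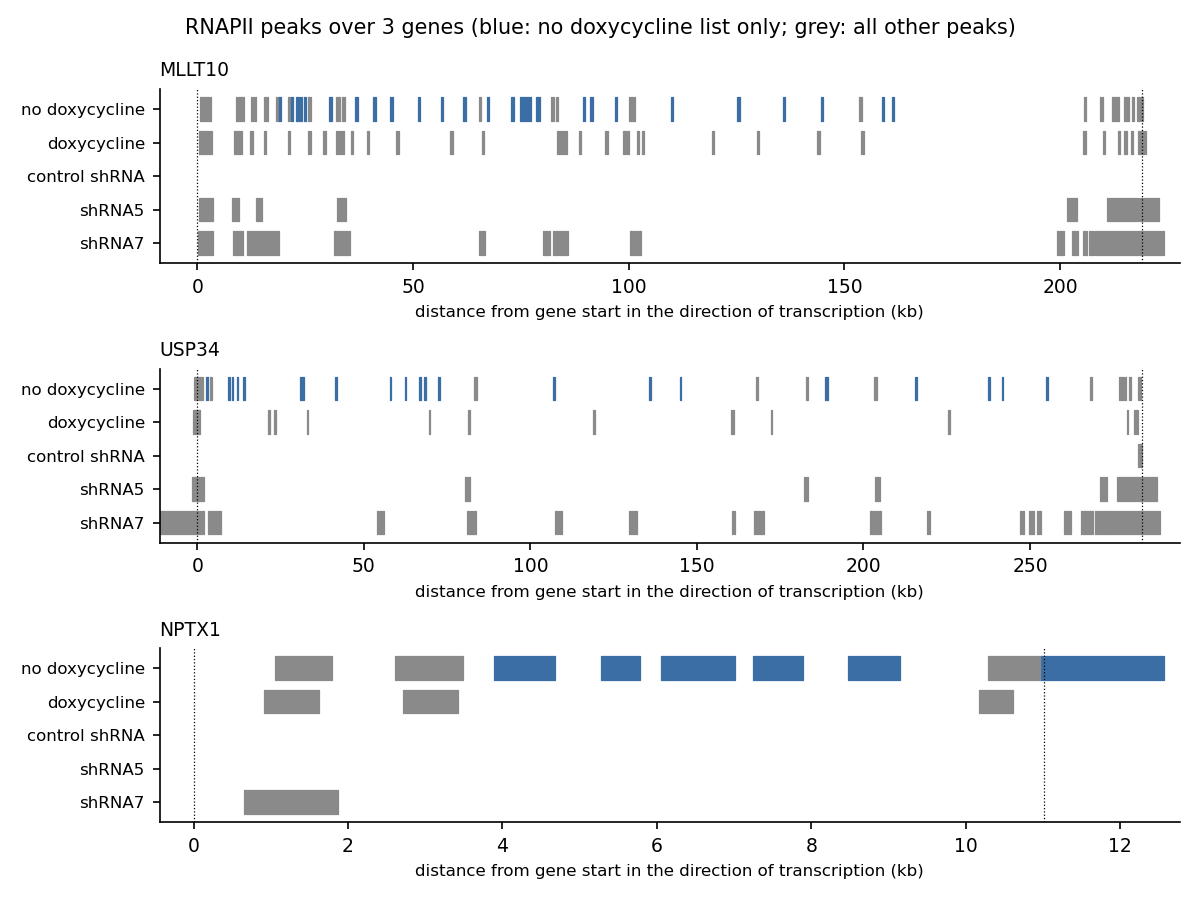
RNAPII peaks of the 5 lists over MLLT10, USP34 and NPTX1, as distance in kb from the gene start in the direction of transcription, with dotted lines at gene start and end, blue for unmatched peaks and grey for all others. In NPTX1 the 6 unmatched peaks fill the stretch from 3.89 to 12.6 kb, in which the doxycycline list holds 1 peak.

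In all, 860 genes held an unmatched peak and no peak in any of the other lists, with 1162 unmatched peaks among them. A single unmatched peak was the only one in 706. A TSS was touched by a no doxycycline peak in 469 (54.5%). All unmatched peaks were multicopy in 173 (20.1%). The genes with the most were NBPF20 and NBPF8, followed by NPIPB13 with 10, LINC00999 with 9 and NPIPA9 with 8, all multicopy. Among the 655 genes with no multicopy unmatched peak, the highest number was 5.

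The genes that the study followed singly had few unmatched peaks. RECQL5 itself (chromosome 17, 73622925 to 73663269) had 8 peaks in each of the doxycycline lists, and 2 of those without the drug were unmatched. One, from 73640823 to 73641364, had 10 tags and a score of 57.5, and the other, from 73646962 to 73647745, had 25 tags and a score of 83.4. They lay 12.6 and 6.25 kb from the nearest doxycycline peak, and 1 of their summits was in an exon and the other in an intron. The plasmid in these cells also carries RECQL5 coding sequence, and its part in these tags was not tested. OPA1, which encodes a GTPase of mitochondrial fusion, had 1 unmatched peak, in an intron 84.4 kb after the start, with 9 tags. CTNNBL1, a spliceosome-associated gene, had 1 multicopy peak with 11 tags. KIFAP3, ITPR1, IFT80 and EFNA2 had none. Of the HEK293 markers, PAX2 had 1 promoter-proximal unmatched peak with 18 tags, its summit 9.98 kb after the gene start, and CDH2 1 in an intron with 10 tags.

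Gene groups were read against the 28.0% of all coding genes that held an unmatched peak, and against the 43.9% among genes with any no doxycycline peak. Histone and ribosomal protein genes, with intervals wholly under these shares, came lowest apart from olfactory receptors. They were also short, with median lengths of 0.509 and 5.60 kb, and 4.27% of genes of 5 kb or less held an unmatched peak. Among genes with any no doxycycline peak their shares were 0% (0 to 6.53%) and 3.61% (1.24 to 10.1%), against 11.6% of genes of 5 kb or less. None of 66 replication-dependent histone genes held one (interval 0 to 5.5%), although 55 had a peak. Of 86 cytosolic ribosomal protein genes 3 did (3.49%, 1.19 to 9.76%), namely RPL27A with 5, RPL10 with 2 and RPSA with 1, while 83 had a peak. These 3 genes have long spans in the annotation, of 31.97, 19.19 and 19.54 kb. The RPSA peak and 1 of the RPL10 peaks touched no coding transcript and were multicopy. The RPL27A summits lay 13.4 to 17.6 kb after the gene start. Of 37 genes of SR and hnRNP splicing factors 5 did (13.5%, 5.91 to 28.0%). Among these were HNRNPA1L2 and HNRNPH1 with 2 each and HNRNPUL2-BSCL2 and HNRNPLL with 1 each, and 5 of the 7 peaks in the group were multicopy. Of 18 immediate early genes 3 did (16.7%, 5.84 to 39.2%). The intervals of both these groups were wide and reached the 28.0% of all coding genes. Among genes with any no doxycycline peak their shares were 14.7% (6.45 to 30.1%) and 16.7% (5.84 to 39.2%), wholly under 43.9%. Both groups were also shorter than all coding genes, with median lengths of 15.978 and 6.497 kb against 27.2 kb. The part of length in their shares was not tested. Among the immediate early genes, NR4A1 had 4 unmatched peaks, KLF2 1 and FOSB 1, the last with 25 tags and 218 bp from a doxycycline peak.

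Among all genes with an unmatched peak 15.2% had no peak in the other lists, and gene groups differed in this. Of 44 collagen genes 9 held one (20.5%, 11.2 to 34.5%), and 6 of the 9 had no peak in the other lists. Among the 15 collagen genes with any no doxycycline peak the share was 60% (35.7 to 80.2%), against 43.9% of all such genes. COL13A1 had 2, with 14 tags at the start and 10 in an intron, COL26A1 had 2 and COL2A1 1. Of 94 potassium channel genes 17 held one (18.1%, 11.6 to 27.1%), which is 60.7% (42.4 to 76.4%) of the 28 with a peak. In 11 of the 17 there was no peak in the other lists, among them KCNJ8 with a promoter-proximal peak of 22 tags. KCNG3 had 3 and KCNIP2 1. Of 39 HOX genes 5 held an unmatched peak (12.8%, 5.60 to 26.7%), and of the 30 with any no doxycycline peak 16.7% (7.34 to 33.6%). Both HOX intervals were wholly under the shares of all coding genes, 28.0% and 43.9%. HOX genes were also short, with a median length of 4.22 kb, and the part of length was not tested. Of the 5 genes 2 were without a peak elsewhere, and there were 2 unmatched peaks in HOXC4 and 1 each in HOXC8, HOXB13, HOXC13 and HOXC6. HOXC8 and HOXC6 overlap and shared a single peak of 9 tags. Of 29 WNT and frizzled genes 6 held an unmatched peak (20.7%, 9.85 to 38.4%), which is 40% (19.8 to 64.3%) of the 15 with any no doxycycline peak. Of the 6 genes 2 were without a peak elsewhere, with 2 in WNT4 and 1 in FZD4 and WNT11, the last at the start with 16 tags. Among 29 semaphorin and plexin genes 11 did (37.9%, 22.7 to 56.0%), again 2 without a peak elsewhere, with 4 in SEMA4B, 2 in SEMA6C and 1 in SEMA3B. The 11 were 64.7% (41.3 to 82.7%) of the 17 with any no doxycycline peak. Of 53 clustered protocadherin genes, which overlap one another, 13 did (24.5%, 14.9 to 37.6%), and all 13 had a peak in another list. The 13 were 65% (43.3 to 81.9%) of the 20 with any no doxycycline peak. PCDHGB5, PCDHGA8 and PCDHGB4 shared a single peak of 21 tags. Of these shares among genes with any no doxycycline peak, all but that of the HOX genes had intervals that held 43.9%.

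The remaining groups were close to the 28.0% of all genes or had few peaks of any kind. Of 508 zinc finger genes 141 held an unmatched peak (27.8%, 24.04 to 31.81%), with 8 in ZNF608, 6 in ZNF131 and 5 in ZNF791. Among the 425 zinc finger genes with any no doxycycline peak the share was 33.2% (28.9 to 37.8%), under the 43.9% of all such genes. Of 39 proteasome subunit genes 13 did (33.3%, 20.6 to 49.0%), with 10 in PSMD1, 5 in PSMB7 and 4 in PSMC6, all in introns and none multicopy. Of 18 genes at common fragile sites 7 did (38.9%, 20.3 to 61.4%), with 5 in PTPRG, 4 in DMD and 1 in RORA. The fragile site genes were long, with a median of 1442 kb, and 45.7% of all genes over 100 kb held an unmatched peak. Among genes with any no doxycycline peak the share was 36.1% (22.5 to 52.4%) for proteasome subunits and 46.7% (24.8 to 69.9%) for fragile site genes. Of 414 olfactory receptor genes, which are silent in most tissues, OR1F1 held 2 and OR2H2 1.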

How the data were processed

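RNAPII ChIP-seq was analysed in 5 libraries (1 per group), 3 of HEK293 and 2 of HEK293T-Rex cells, for which 4 IgG libraries served as background. According to the submitters' processing notes, CASAVA 1.8, Bowtie 0.12.7 and MACS 1.4.2 were used, and the study's methods state that MACS called peaks for each sample against IgG. The authors deposited peak lists on hg19 that give, for each peak, its position, length and summit, a whole-number count of tags, a significance score (the negative log10 of the p-value, multiplied by 10), a fold enrichment ratio and a false discovery rate in percent. The methods add that Bowtie ran with its best option and that reads in ENCODE blacklisted regions were taken out, while any limit on reads with many equally good positions is not given in the sources used here. The lists hold tags inside peaks only, so total library depth was not used, and the precision of shares and medians is given as counting error.

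Overlap, position, base composition, motifs and repeated stretches of 32 bases were computed with Python 3.11.15, NumPy 2.4.6, pandas 2.3.3, SciPy 1.17.1 and numba 0.67.0, and figures with matplotlib 3.10.9, on the GRCh37 sequence and the GENCODE annotation lifted to it. Intervals are 95% Wilson intervals for shares and order-statistic intervals for medians. With 1 library per group no test was made. The scripts were checked on simulated data. Peaks and genes were chosen with earlier results of these data known. Named were RECQL5 and the genes the study followed singly, the 10 peaks of highest score, the 10 genes with the most unmatched peaks, the 5 with the most per kb, the 5 with the most and no peak elsewhere, and the leading genes of each gene list. Lists were built from gene symbols, so that near-identical or overlapping genes can share a peak. The measure of repeated sequence, and its use as an alternative, were chosen after seeing the data. Other alternatives were stricter peaks, merged lists, other definitions of overlap and of a promoter, and fewer chromosomes. One peak that these rules would name is not reported here.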

Additional observations from a re-analysis of the deposited data

How the results depend on the processing

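No paired analysis was possible because there was 1 library per group, and for the same reason no replicate could be left out. Of 87 alternative values for 9 results, 21 stayed within the interval of the reported value and 66 did not. On chromosomes 1 to 22 and X all 9 stayed within it. Most alternatives change which peaks enter by their own construction. The other definitions of a promoter or gene, and AT content over the peak itself, keep the same peaks and change how they are classified or measured. Beyond that the cause was not tested. The share of peaks absent from other lists was 7.20% for peaks with a score of at least 100, 15.8% with that limit in all lists, 26.9% for a fold enrichment of at least 10, 33.96% after merging neighbouring peaks, 67.0% when 50% of both peaks had to overlap, 22% when peaks within 1 kb counted as shared, 54.4% against the doxycycline list alone and 24.03% without multicopy summits. In that order the promoter-proximal share was 23.2%, 35.4%, 9.76%, 9.47%, 11.2%, 9.71%, 12.4% and 11.2%. It was 11.4% with 1 kb around start sites and 20.5% with start sites of all gene types. The gene-body share was 50.8% and 42.8% with the score limits, 71.2% after merging, 73.0% with the 50% overlap, 69.0% within 1 kb, 69.8% against doxycycline alone, 69.9% with 1 kb around start sites and 77.4% without multicopy summits. The median AT content was 48.15% and 46.85% with the score limits, 53.5% with the fold limit, 54.45% after merging, 53.4% against doxycycline alone, 52.4% over the peak itself and 53.75% without multicopy summits. The share of gene-body summits in exons was 11.9% and 10.9% with the score limits, 15.3% with the 50% overlap, 7.35% within 1 kb, 13.7% against doxycycline alone and 9.31% without multicopy summits. The share of genes with an unmatched peak was 4.53%, 10.1%, 25.4%, 26.2%, 44.4%, 23.5%, 43.2% and 24.4% in the order of the absent share. Removing multicopy summits was chosen after seeing the data. A peak of 9 or 10 tags is under the smallest tag count of every other list, and the part of depth was not tested.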
